A study of Mus musculus with 162 samples.

Results

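The cerebellum (CBL) of mice late in a fast was compared with the cerebellum of fed mice, across all genes measured. The libraries were chosen by organ and time without food, with no measured value used. Of the 162 libraries of the series, taken from 9 organs of 18 mice, 12 were CBL libraries of the times compared. The late fast group held 6 libraries, 3 mice fasted for 18 h and 3 for 22 h. Another 6 libraries made up the fed group, from 3 mice fed ad libitum (0 h) and 3 mice that had been without food for 2 h.

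All mice were adult C57BL/6J males with water at hand, and each library came from a different mouse. The study asked how short fasting changes gene expression in organs across the body. Every mouse was killed in the same hour, early in the dark phase, and food was removed at different times before it, so that clock time at death was shared and the clock time of food removal was not. Another 6 CBL libraries, at 8 h and 12 h, entered the filter on low counts and are drawn in the plots, but were not compared.

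The cerebellum is packed with granule neurons, which excite the Purkinje cells, the only neurons that carry the output of the cerebellar cortex. Bergmann glia, a form of astrocyte, clear glutamate around Purkinje dendrites, and oligodendrocytes wrap the axons of the white matter in myelin. During a fast the liver supplies glucose and ketone bodies to the brain, glucocorticoids act on many cell types, and neurons keep a high demand for energy made in mitochondria.

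The labelled tissue was checked with Cbln1, a synapse organizer secreted by granule neurons, and Pcp2, a Purkinje cell protein. Levels are given as normalized CPM (counts scaled to the size and composition of each library). Cbln1 lay between 744 and 985 in the 12 CBL libraries, with a median of 889, against medians of 73.6 in the brainstem (BST) and 71.8 in the olfactory bulb (OB) of the same mice. Pcp2 lay between 284 and 403, with a median of 343, against medians of 2.39 in BST and 0.572 in OB. All 12 CBL libraries stood above every BST and OB library for both markers, so that the label held. Neither marker was called between the states, with a log2 fold change of 0.11 for Cbln1 (adjusted p = 0.432) and 0.00 for Pcp2 (adjusted p = 0.996).

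The depth differed between time points. The 0 h libraries held 20396385, 22071004 and 21497914 counts, while the other 9 libraries held between 6872363 and 9487976. All of the CBL libraries were sequenced in lane 3. Depth and the 0 h time point cannot be told apart, but the calls were repeated with the 0 h counts thinned at random to 8570625, which gave 79 called genes.

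Few genes were called between the late fast and the fed state, and their differences were small. Among 15976 genes tested, of 53686 in the count table, 43 (0.269%) were called higher and 58 (0.363%) lower in the late fast at an adjusted p under 0.05, together 0.632%. The absolute log2 fold change of called genes had a median of 0.36, from 0.20 to 1.28, and the median log2 fold change of all genes tested was 0.01. Of all genes tested, 8243 had a log2 fold change above 0 and 7733 below. Unadjusted p was under 0.05 in 2626 genes (16.4%), and the smallest adjusted p was 0.00978. With DESeq2 in place of edgeR, 502 genes were called, among them 99 of the genes called by edgeR. Predicted genes without an established name made up 2 of the 43 called higher and 13 of the 58 called lower, against 2407 of the 15976 tested. The gene lists used below were chosen with earlier results of these data known, so that their counts and medians describe and do not test.

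The called set depended on single libraries. No gene was called by edgeR without 2 h replicate 1 (2236 genes at an unadjusted p under 0.05) or without 18 h replicate 3 (2009 genes). Thus no edgeR call between the late fast and the fed state held without either of these libraries (DESeq2 was not run without them). The count was 1 without 2 h replicate 2, 2 without 22 h replicate 2, 5 without 22 h replicate 3, 9 without 0 h replicate 2, 24 without 0 h replicate 3 and 29 without 0 h replicate 1. It was higher without 22 h replicate 1 (197), 18 h replicate 1 (371) or 18 h replicate 2 (467). Without 2 h replicate 3 it was 107. Without the 3 libraries of 18 h, 1324 genes were called, and without those of 22 h, 35. Without those of 0 h it was 3, with 0 of the genes called from all 12 libraries among them (1636 genes at an unadjusted p under 0.05 by edgeR), and without those of 2 h it was 0 (1651 genes). DESeq2 was not run on these subsets.

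**Figure D1:**
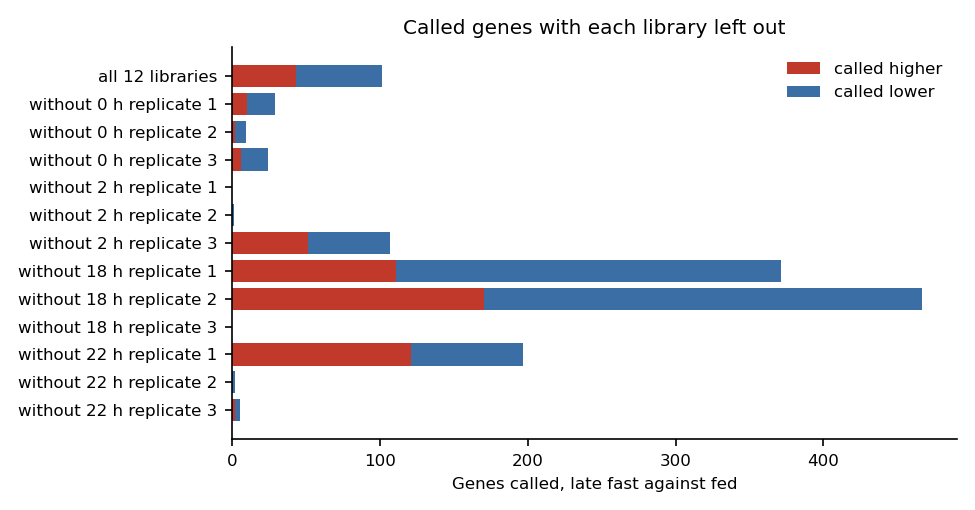
Bars give the number of genes called between the late fast and the fed state (adjusted p under 0.05), with all 12 libraries and with each library left out in turn; red is higher and blue is lower in the late fast. The count ran from 0 to 467, and all libraries gave 43 genes higher and 58 lower.

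The mitochondrial genome carried the call with the smallest adjusted p. Its protein genes encode subunits of respiratory complexes and of the ATP synthase, and their mRNAs are made inside mitochondria. mt-Nd2 (complex I, chrM:3914-4951, GRCm38) lay at 5841, 6061 and 6446 normalized CPM (lowest, median and highest of the 6 fed libraries) and at 3742, 4198 and 5193 in the late fast. The groups did not overlap, and the 3 libraries of 22 h were the lowest. mt-Nd2 fell by 0.49 on the log2 scale (SE 0.07, adjusted p = 0.00978). It was called in 10 of 12 fits with a library left out, and not without 2 h replicate 1 or 18 h replicate 3 (highest adjusted p 0.0757), while its log2 fold change stayed between -0.55 and -0.46.

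Another 4 genes of this genome were called lower. mt-Co1, the catalytic core of cytochrome c oxidase, lay at 19604, 20820 and 22283 in the fed state and at 13897, 16378 and 18581 in the late fast, with no overlap (log2 fold change -0.35, adjusted p = 0.0375). mt-Cytb, the cytochrome of complex III, lay at 9590, 10178 and 11195 against 6884, 7809 and 9615. The highest late fast library thus reached just above the lowest fed library for mt-Cytb (log2 fold change -0.36, adjusted p = 0.0415). Of the complex I genes, mt-Nd1 (log2 fold change -0.34) lay between 6735 and 7997 in the fed state and between 5009 and 6799 in the late fast. mt-Nd4 (log2 fold change -0.38) lay between 3732 and 4342 against 2521 and 3718, without overlap.

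All 11 mitochondrial genes tested, of 13 listed, had a log2 fold change below 0, with a median of -0.36 beside 0.01 for all genes. Of the 11, 5 were called lower, beside 0.363% of all genes. The summed level of the list was 50491, 52977 and 56820 in the fed libraries and 35634, 41118 and 49308 in the late fast. No late fast library reached the lowest fed library. The 3 libraries of 22 h held 38817, 37758 and 35634, and those of 18 h held 45080, 49308 and 43420. Of all counts, 5.32% ± 0.266 (SD, n = 6) came from the mitochondrial genome in the fed state and 4.17% ± 0.5 (SD, n = 6) in the late fast. An exact two-sided permutation test over the 12 libraries gave p = 0.00216, the smallest p it can give, and 0.00866 after adjustment over the 8 library measures tested. Against the 2 h libraries alone the difference was -1.17 percentage points, with an exact p of 0.0238 and an adjusted p of 0.0952. With 6 libraries against 3, the smallest p this test can give is 0.0119. Nuclear near-identical copies of mitochondrial genes share reads with them, and only uniquely mapped reads were counted, so that these levels are uncertain in their absolute size.

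The 10 most abundant genes of each library, several of them mitochondrial, held 6.65% of counts in the fed state and 5.57% in the late fast (exact permutation p = 0.00216, adjusted p = 0.00866). Without the 0 h libraries the difference was -1.09 percentage points (exact permutation p = 0.0119, the smallest it can give, and adjusted p = 0.0952). Mitochondrial counts enter this measure again, so that it does not stand apart from the mitochondrial share. The other 6 library measures did not pass the test. Total counts (adjusted p = 0.239), genes detected (0.19), nuclear long noncoding RNA share (0.229), red blood cell share (0.537), ribosomal protein share (0.851) and the share of RNAs without a poly(A) tail (0.959) were tested by the same exact permutation.

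Of 79 nuclear genes of the respiratory chain tested, 1 was called lower, Ndufb2, beside 0.363% of all genes. The 79 had a median log2 fold change of 0.01. Their sum was 11737, 11715 and 13562 at 18 h and 14371, 13951 and 13598 at 22 h, against 12660 to 13597 in the fed state. Thus 18 h replicates 1 and 2 lay below every fed library, and 18 h replicate 3 lay within the fed range, close to 22 h replicate 3. The median log2 fold change was 0.13 at 22 h against 0 h, -0.14 at 18 h against 2 h and 0.24 at 22 h against 18 h. Ndufb2, an accessory subunit of complex I (chr6:39592574-39603382, GRCm38), lay at 38.9, 39.7 and 41.9 in the fed state and at 29.4, 29.8 and 33.7 in the late fast. Every late fast library was below every fed library, and those of 18 h and 22 h lay in a like range (log2 fold change -0.35, SE 0.06, adjusted p = 0.0239). Coq8a, which acts in the synthesis of coenzyme Q, the electron carrier of the chain, was called higher (log2 fold change 0.34, adjusted p = 0.0388). It lay between 43.96 and 54.8 in the fed state and between 54.7 and 64.3 in the late fast. The abundant ATP synthase subunits Atp5b (log2 fold change 0.13, adjusted p = 0.242) and Atp5a1 (0.16, adjusted p = 0.164) were not called.

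**Figure D2:**
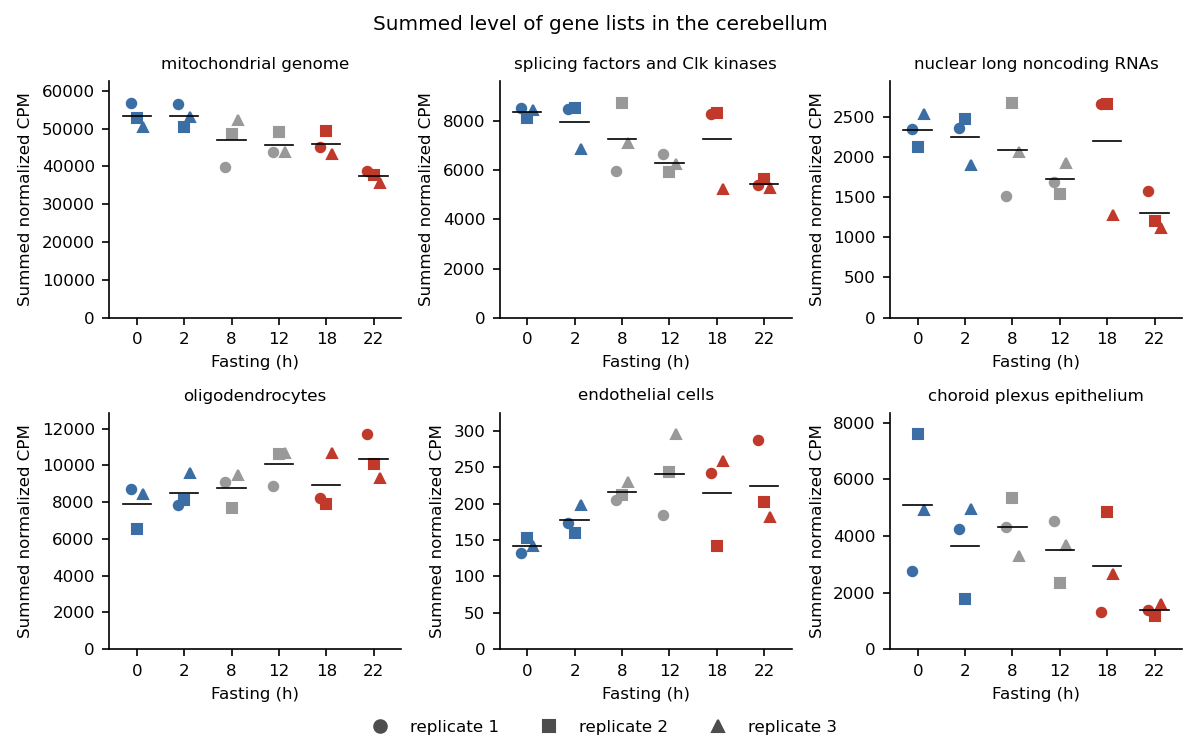
Each point is the summed normalized CPM of a gene list in 1 CBL library, by hours of fasting, with a line at the mean of each time; blue marks the fed state, red the late fast and grey the times not compared. The mitochondrial genome lay between 50491 and 56820 in the fed state and between 35634 and 49308 in the late fast, while 18 h replicates 1 and 2 stood with the fed libraries for splicing factors and nuclear long noncoding RNAs.

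Some splicing regulators were called lower in the late fast. SR proteins choose splice sites, and the Clk kinases phosphorylate them in the nucleus. Of 33 genes of this list tested, 4 were called lower, beside 0.363% of all genes, and none higher. Below 0 lay 32 log2 fold changes, beside 7733 of 15976 for all genes, and the median was -0.34 beside 0.01. This list was chosen with earlier results of these data known, so that its counts describe and do not test. Clk1 (chr1:58410189-58424066, GRCm38) had the largest change of the called members. It lay at 170, 206 and 228 in the fed state and at 95.1, 106 and 162 in the late fast. The groups did not overlap, and 18 h replicates 1 and 2 lay nearest to the fed libraries (log2 fold change -0.74, SE 0.14, adjusted p = 0.0415).

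The SR protein Srsf7 lay between 160.8 and 182 in the fed state and between 125.3 and 145.9 in the late fast (log2 fold change -0.28, adjusted p = 0.0328). Srsf3, another SR protein, lay between 208 and 235.4 against 157.1 and 195.6 (log2 fold change -0.29, adjusted p = 0.0388). Tra2a, an SR-like activator of exon inclusion, lay between 97.0 and 139.2 against 59.5 and 88.2 (log2 fold change -0.53, adjusted p = 0.0458). Ddx5, an RNA helicase and the most abundant member (log2 fold change -0.29, adjusted p = 0.199), and Srrm2, a scaffold of nuclear speckles (-0.32, adjusted p = 0.48), were not called.

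Of the nuclear long noncoding RNAs, all 13 tested had a log2 fold change below 0, with a median of -0.37. Only 1 was called lower, beside 0.363% of all genes, and this list too was chosen with earlier results known. Gas5, a host of small nucleolar RNAs, lay at 66.3, 68.0 and 69.6 in the fed state and at 51.4, 57.99 and 60.3 in the late fast. Its groups did not overlap, and the fed libraries were close together (log2 fold change -0.24, SE 0.05, adjusted p = 0.0458). Gas5 was called under 6 of 13 other settings and in 3 of the 12 fits with a library left out. The abundant Snhg11 (log2 fold change -0.41, adjusted p = 0.538) and Mir124a-1hg, the host of a neuronal microRNA (-0.64, adjusted p = 0.271), were not called. For both, late fast libraries lay below and above the fed range.

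The late fast libraries differed among themselves in these RNAs. Summed nuclear long noncoding RNAs were 2665, 2661 and 1274 in the 18 h libraries and 1576, 1209 and 1116 in those of 22 h, against 1899 to 2532 in the fed state. Summed splicing regulators were 8315, 8321 and 5224 at 18 h and 5403, 5648 and 5275 at 22 h, against 6865 to 8551. Thus 18 h replicates 1 and 2 lay in or above the fed range on both lists, and 18 h replicate 3 lay with the 22 h libraries. 2 h replicate 3 was the lowest fed library on both. The part of 18 h replicates 1, 2 and 3 and of 2 h replicate 3 in the calls of other genes was not tested apart from leaving each out.

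Among genes called higher, the smallest adjusted p (0.0239) belonged to Gsn, Fasn and Map1a. Gsn, the actin-severing protein gelsolin (chr2:35256380-35307892, GRCm38), lay at 53.4, 60.9 and 65.9 in the fed state and at 73.4, 81.3 and 101.9 in the late fast. All late fast libraries were above all fed libraries, with 18 h replicate 3 the highest. Gsn had a log2 fold change of 0.47 (SE 0.08, adjusted p = 0.0239) and was called in 8 of 12 fits with a library left out. Fasn, the fatty acid synthase (chr11:120805846-120824547, GRCm38), lay at 97.3, 104.9 and 119.2 against 115.2, 138.5 and 151.1. Only 22 h replicate 1 fell within the fed range (log2 fold change 0.38, SE 0.07, adjusted p = 0.0239).

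Fasn was the called gene of the lipid synthesis list, 1 of 15 tested, of which 13 had a log2 fold change above 0 (median 0.07). Of all genes, 0.269% were called higher. The summed level of that list was 2556, 2685 and 2864 in the fed state and 2768, 2967 and 3093 in the late fast, and 5 late fast libraries lay above every fed library. Its most abundant member Scd2, a desaturase, was not called (log2 fold change 0.17, adjusted p = 0.144). Of 20 genes of cholesterol synthesis and uptake tested, 19 had a log2 fold change above 0 and the median was 0.15. None was called by edgeR between the pooled states. Hmgcs1, which makes the precursor HMG-CoA in the cytosol, lay between 140.3 and 169.5 in the fed state and between 160 and 199 in the late fast (log2 fold change 0.25, adjusted p = 0.0541).

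Map1a, which binds microtubules in mature neurons, lay at 357, 398 and 431 in the fed state and at 425, 525 and 557 in the late fast. Apart from 1 late fast library the groups did not overlap (log2 fold change 0.38, SE 0.07, adjusted p = 0.0239). Wdr7, which takes part in acidifying synaptic vesicles and other compartments, had a log2 fold change of 0.31 (adjusted p = 0.0388). Scarb2, a lysosomal membrane protein that carries glucocerebrosidase to lysosomes, lay between 151.2 and 165.4 against 179 and 194, without overlap (log2 fold change 0.24, adjusted p = 0.0388). Gpsm1, a regulator of G protein signalling, lay between 120 and 133.8 against 143.6 and 167.7 (log2 fold change 0.26, adjusted p = 0.0388). Wdr6 (log2 fold change 0.36) and Urgcp (0.33) had the same adjusted p of 0.0388.

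The largest folds among genes called higher, predicted genes aside, were those of Btbd16 and Rtl8a. Btbd16 had 3 to 14 counts in a library and lay between 0.373 and 0.765 in the fed state and between 0.914 and 1.59 in the late fast (log2 fold change 1.28, SE 0.28, adjusted p = 0.0458). It passed the filter of 1.183 CPM in 3 of the 18 CBL libraries only through 3 late fast libraries (1.48, 1.59 and 1.23 normalized CPM), so that it was tested because of the group in which it is high, and its fold is uncertain. Rtl8a, a gene derived from a retrotransposon on the X chromosome, lay at 25.3, 31.0 and 37.6 in the fed state and at 30.6, 61.6 and 67.9 in the late fast. Rtl8a was at 30.6 in 22 h replicate 3, within the fed range, and above every fed library in the other 5 (log2 fold change 0.89, SE 0.17, adjusted p = 0.0419). Cnn2, an actin-binding calponin, had a log2 fold change of 0.46 (adjusted p = 0.048). Armcx5 (log2 fold change 0.44, adjusted p = 0.0415) and Dolk, the dolichol kinase of protein glycosylation (0.43, adjusted p = 0.0458) were also among the 8 largest, with Gsn and the myelin genes Cldn11 and Mog.

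Only 3 genes passed an absolute log2 fold change over 1 in addition (0.0188% of genes tested). Besides Btbd16, which entered the test only through late fast libraries, these were the predicted genes AC122018.1 (log2 fold change -1.06) and Gm37893 (-1.21), which were named after their values were seen. Their median levels in the fed state were 4.90 and 3.00 normalized CPM. This count was 16 without 18 h replicate 1 and 31 without 18 h replicate 2. It was 1 without 0 h replicate 2 or 22 h replicate 3, and 0 by edgeR without 0 h replicate 3, 2 h replicate 1, 2 h replicate 2, 18 h replicate 3 or 22 h replicate 2, where between 2009 and 2284 genes had an unadjusted p under 0.05. DESeq2, run with all 12 libraries, gave 7.

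Some myelin genes were called higher in the late fast. Of 10 oligodendrocyte genes tested, 4 were called higher, beside 0.269% of all genes, and none lower. All 10 had a log2 fold change above 0, beside 8243 of 15976 for all genes, with a median of 0.33 beside 0.01. This list was chosen with earlier results of these data known, so that its counts describe and do not test. Cnp, an enzyme of the myelin membrane (chr11:100574904-100591729, GRCm38), lay at 337, 365 and 411 in the fed state and at 421, 462 and 511 in the late fast. Every late fast library was above every fed library (log2 fold change 0.33, SE 0.07, adjusted p = 0.0388). Mag, an adhesion protein of the inner myelin layer, lay between 150 and 190 against 192.4 and 244, also without overlap (log2 fold change 0.33, adjusted p = 0.0415).

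Mog, on the outer face of myelin, lay between 92.1 and 111.4 in the fed state and between 111.8 and 163.9 in the late fast (log2 fold change 0.41, adjusted p = 0.0415). Cldn11, the claudin of myelin tight junctions, lay at 94.7, 118.45 and 130 against 126.4, 166.4 and 177 (log2 fold change 0.44, adjusted p = 0.0458). The 22 h libraries were the highest for Cldn11, and 1 late fast library lay in the fed range. The most abundant member, Mbp, made up 40.7% of the summed level and was not called (log2 fold change 0.23, adjusted p = 0.454). No marker of the list was at 0. Fewer cells of a type and less RNA per cell cannot be told apart in tissue libraries such as these, and the same holds for more.

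Summed oligodendrocyte RNA was 8697, 6537 and 8432 at 0 h, 7863, 8118 and 9574 at 2 h, 8225, 7899 and 10661 at 18 h, and 11677, 10089 and 9291 at 22 h. The groups overlapped, with 3 late fast libraries above every fed library. For oligodendrocyte precursors they did not: the 6 genes summed to 155.2, 131.1 and 162 at 0 h, 141.04, 160.5 and 165.04 at 2 h, 175.8, 166.1 and 186.1 at 18 h, and 168.6, 191.2 and 179.3 at 22 h. Olig1, a transcription factor of the lineage and the most abundant member, was called higher (52.4, 61.5 and 70.0 against 69.6, 79.1 and 87.8). Its log2 fold change was 0.38 (SE 0.08, adjusted p = 0.0388). Sox10, shared by the whole lineage, was not called (log2 fold change -0.05, adjusted p = 0.842). How far white matter in each dissected piece took part in these values was not tested.

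**Figure D3:**
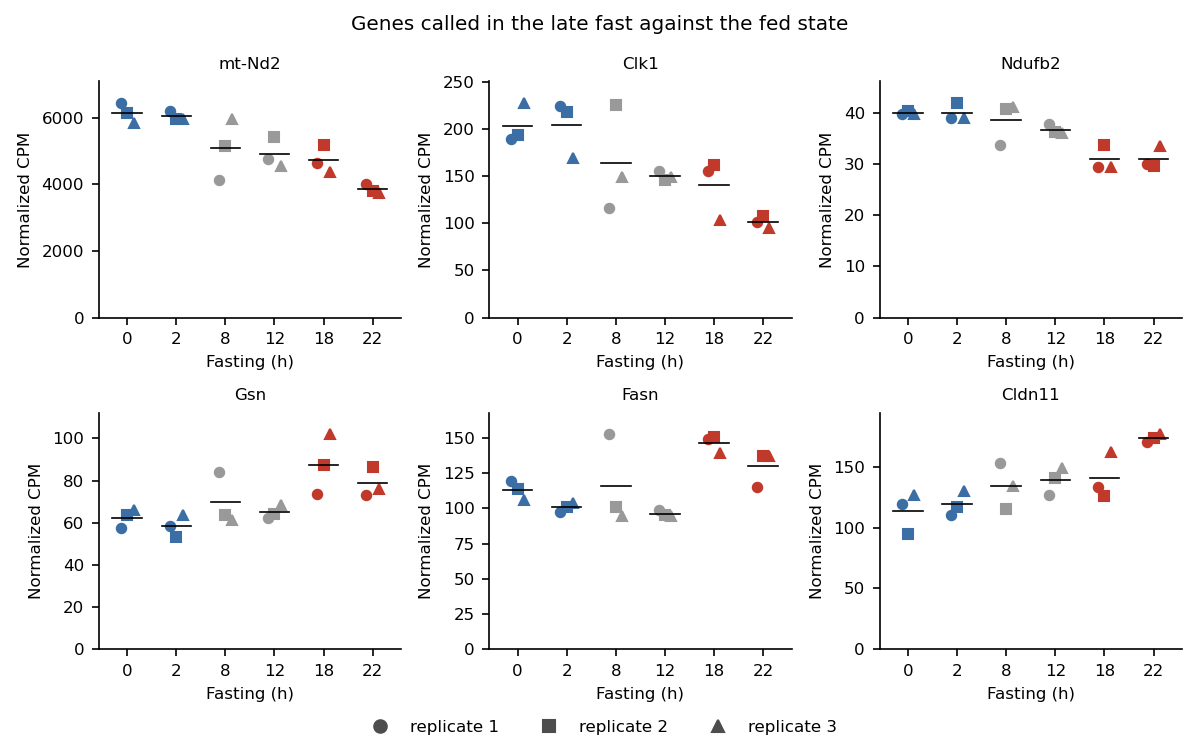
Each point is the normalized CPM of a gene in 1 CBL library, by hours of fasting, with a line at the mean of each time; blue marks the fed state, red the late fast and grey the times not compared. mt-Nd2, Clk1 and Ndufb2 were lower in all 6 late fast libraries than in any fed library, and Gsn was higher in all 6.

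Bergmann glia and astrocytes gave 1 call, higher, among 10 genes, beside 0.269% of all genes called higher. Slc1a2, a glutamate transporter of astrocytes (chr2:102658659-102790784, GRCm38), lay at 454, 498 and 566 in the fed state and at 593, 617 and 679 in the late fast. No library overlapped, and 18 h replicate 3 was the highest (log2 fold change 0.31, SE 0.06, adjusted p = 0.0375). All 10 genes had a log2 fold change above 0, with a median of 0.16. Slc1a3, the transporter that Bergmann glia carry and the most abundant member, was not called (0.20, adjusted p = 0.146), nor was S100b (0.04, adjusted p = 0.861). The summed level of the list was 3481, 3791 and 3947 against 3721, 4214 and 4607, with 4 late fast libraries above every fed library.

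Neuron markers gave no call by edgeR between the pooled states. Of 10 granule neuron genes, 5 had a log2 fold change above 0 and 5 below, and the median was 0.00. Cbln3, the partner of Cbln1, had a log2 fold change of 0.14 (adjusted p = 0.343), and Gabra6, a granule neuron GABA receptor subunit, -0.10 (adjusted p = 0.428). All 10 Purkinje cell genes had a log2 fold change above 0, with a median of 0.11. Itpr1, the calcium channel of Purkinje endoplasmic reticulum, lay between 1783 and 2070 in the fed state and between 1935 and 2485 in the late fast (log2 fold change 0.24, adjusted p = 0.0729), and Car8, which binds it, had 0.10 (adjusted p = 0.49). Interneuron genes had a median of 0.04, with Kit at 0.20 (adjusted p = 0.334) and Pvalb, which Purkinje cells also express, at -0.03 (adjusted p = 0.877).

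Several genes outside the lists were called lower. Med20, a subunit of the Mediator complex (chr17:47611582-47624418, GRCm38), lay at 37.1, 43.4 and 48.5 in the fed state and at 28.5, 31.3 and 35.3 in the late fast. Zfp760, a zinc finger protein, lay between 32.1 and 37.1 against 20.4 and 29.1. Neither overlapped, with log2 fold changes of -0.44 for Med20 and -0.45 for Zfp760 (adjusted p = 0.0239 for each). Dimt1, which methylates ribosomal RNA, lay at 15.6, 19.3 and 21.4 against 6.503, 10.1 and 14.0 (log2 fold change -0.82, SE 0.15, adjusted p = 0.031). Vbp1, a prefoldin subunit that hands new proteins to a chaperonin, had a log2 fold change of -0.34 (adjusted p = 0.0328), and Ahsa2, related to an activator of Hsp90, -0.46 (adjusted p = 0.0375). Msl1, of a histone acetyltransferase complex, had -0.28 (adjusted p = 0.0328), and Pcgf6, a Polycomb protein, -0.61 (adjusted p = 0.0415).

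Some of the genes called lower are uncertain in what they count. Rps13 and Rps24, proteins of the small ribosomal subunit, share sequence with processed copies elsewhere in the genome, and reads that map to more than 1 place were not counted. Rps13 had 9 to 90 counts in a library and lay between 3.76 and 4.76 in the fed state and between 1.30 and 3.29 in the late fast (log2 fold change -0.88, adjusted p = 0.0388). Rps24 lay between 45.0 and 52.6 against 29.2 and 45.2 (log2 fold change -0.39, adjusted p = 0.0419). Over 83 ribosomal protein genes tested, 2 were called lower, beside 0.363% of all genes. Below 0 lay 62 log2 fold changes, with a median of -0.09 for the list. The abundant Rps3 (-0.01, adjusted p = 0.986) and Rpl4 (-0.03, adjusted p = 0.858) were not called. Rab10os (log2 fold change -0.60, adjusted p = 0.0458) is annotated opposite to Rab10, and its level is reported as uncertain. Zc3h11a (log2 fold change -0.61, adjusted p = 0.0419) is the name of 2 annotated genes, and which of them was counted is unclear.

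Choroid plexus RNA varied widely between libraries. This epithelium makes cerebrospinal fluid in the ventricle beneath the cerebellum, and Ttr, its carrier of thyroid hormone, made up 65.2% of the summed level of its 20 markers. The sum was 2754, 7588 and 4931 at 0 h, 4231, 1767 and 4962 at 2 h, 1324, 4859 and 2671 at 18 h, and 1365, 1156 and 1608 at 22 h. The groups overlapped, and 4 late fast libraries lay below every fed library. All 20 genes had a log2 fold change below 0, with a median of -0.86, and no marker was at 0. None was called by edgeR between the pooled states. At 22 h against 0 h the list median was -1.88, and Otx2 was called lower (-0.59, adjusted p = 0.0472). At 18 h against 2 h the median was -0.12, and Otx2 was at -0.13 and not called. Ttr lay at 1143, 3090 and 5153 in the fed state and at 650, 931 and 3005 in the late fast (log2 fold change -1.13, SE 0.47, adjusted p = 0.265). Enpp2, which is also found in oligodendrocytes, had -0.78 (adjusted p = 0.379). The part that the amount of attached choroid plexus played in these levels was not tested.

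Ependymal cells, which line the ventricle, had 8 genes with a log2 fold change below 0 of 8 tested and a median of -0.26. Their sum was 43.9, 49.2 and 45.4 at 0 h, 39.9, 37.9 and 53.1 at 2 h, 32.3, 42.2 and 40.3 at 18 h, and 40.7, 33.4 and 35.99 at 22 h, with Foxj1 the most abundant (log2 fold change -0.23, adjusted p = 0.295). Vessel markers lay on the other side. Endothelial genes summed to 132.05, 153.2 and 141.9 at 0 h, 173.3, 159.4 and 198.7 at 2 h, 242.5, 141.7 and 258.7 at 18 h, and 288.2, 202.7 and 181.3 at 22 h. All 10 had a log2 fold change above 0, with a median of 0.51, and none was called by edgeR. Itm2a, the most abundant, had 0.48 (adjusted p = 0.194). All 8 mural cell genes were also above 0 (median 0.36), led in level by Rgs5 (0.26, adjusted p = 0.46). Their sum was 127.7, 144.9 and 140.6 at 0 h, 164.9, 152.2 and 171.03 at 2 h, 196.2, 142.7 and 222.9 at 18 h, and 211.8, 164.99 and 157.4 at 22 h, and the part of vessels in other results was not tested.

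Other cell types that a dissected cerebellum could hold gave no call by edgeR between the pooled states. Microglial genes had a median log2 fold change of 0.04 over 10. Meningeal fibroblast genes had a median of 0.03 over 10, with Ptgds making up 87.9% of their sum (-0.03, adjusted p = 0.944). The 5 red blood cell genes, led by Hbb-bs (-0.28, adjusted p = 0.783), summed to between 50.2 and 227 in the fed state and between 49.9 and 141.8 in the late fast. Brainstem neuron genes, 9 tested of 15 and mostly Slc17a6 (0.32, adjusted p = 0.729), summed to between 26.6 and 115.5 against 59.1 and 96.4. Of skeletal muscle genes, 4 of 8 were tested, with the largest median log2 fold change of any list (1.01), and Pvalb of Purkinje cells and interneurons made up 99.3% of their sum, while Acta1 lay between 1.42 and 7.83 in the late fast (0.95, adjusted p = 0.199). At 22 h against 0 h Acta1 was called higher (1.43, adjusted p = 0.0452), with 7.83, 3.04 and 1.91 in the 22 h libraries, and its late fast log2 fold change was 0.41 without 22 h replicate 1. No marker of these lists was at 0 in all libraries, and their part in other results was not tested.

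Metabolic lists held few calls. Of 23 genes of fatty acid oxidation and ketone use, none was called by edgeR between the pooled states. The median log2 fold change was 0.11, with Oxct1, which starts the use of ketone bodies, at 0.12 (adjusted p = 0.254). Glucose uptake and glycolysis had a median of 0.07 over 20 genes, led by Aldoc at 0.12 (adjusted p = 0.349). Insulin and FoxO signalling had 0.05 over 18, with Foxo3 at 0.16 (adjusted p = 0.251). Autophagy and lysosome genes had 0.03 over 20, with the protease Ctsb at 0.15 (adjusted p = 0.152). In the ATF4 list, the response to amino acid shortage, 1 of 20 genes was called higher, beside 0.269% of all genes. Slc7a5, a subunit of the large neutral amino acid transporter, lay at 66.4, 84.1 and 87.1 in the fed state and at 92.0, 101.1 and 117.1 in the late fast, without overlap (log2 fold change 0.35, SE 0.07, adjusted p = 0.0415). Atf4 itself had -0.08 (adjusted p = 0.557), and the median of the list was 0.02.

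Stress and hormone lists held no call by edgeR between the pooled states. Of 16 endoplasmic reticulum chaperones, 15 had a log2 fold change below 0 and the median was -0.29. Hsp90b1 lay between 257 and 388 in the fed state and between 226 and 264 in the late fast (log2 fold change -0.34, adjusted p = 0.088 by edgeR, called lower by DESeq2), and the sum of the list reached 2907 in 0 h replicate 3. Heat shock and cold-inducible genes had a median of -0.13 over 15, led by Hsp90ab1 (0.13, adjusted p = 0.396). Of 21 glucocorticoid response genes, 19 lay above 0 (median 0.31), among them Mt1 (0.21, adjusted p = 0.571). Thyroid hormone handling had a median of 0.05 over 9 genes, with Thra at 0.13 (adjusted p = 0.33), interferon-stimulated genes 0.27 over 15, with Ifi27 at -0.12 (adjusted p = 0.675), and antigen presentation 0.17 over 13, with H2-D1 at 0.17 (adjusted p = 0.161).

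Clock and activity genes also gave no call by edgeR between the pooled states. The 18 clock genes had a median log2 fold change of 0.03, with Tef at 0.10 (adjusted p = 0.336) and Nr1d2 at 0.04 (adjusted p = 0.794). Of 17 immediate early genes tested, 6 lay above 0 and 11 below (median -0.04), with Jun at 0.20 (adjusted p = 0.204) and Dusp1 at -0.19 (adjusted p = 0.798). The 24 glutamate and GABA receptor genes had a median of 0.06. Neurotrophic factors and receptors had 0.08 over 10, with Ntrk2 at 0.05 (adjusted p = 0.713). RNAs without a poly(A) tail had a median of 0.01 over 9, led by Hist1h1c (0.20, adjusted p = 0.474).

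The time points behind the pooled groups were then compared in a single fit with 4 groups. At 22 h against 0 h, 539 genes (3.37%) were called, 391 lower (2.45%) and the rest higher (0.926%), with 83 past an absolute log2 fold change of 1 (0.52%). DESeq2 called 973. For 18 h against 2 h, a comparison with no library in common with the first, 7 genes (0.0438%) were called, and 250 by DESeq2. No gene was called in both by edgeR (3323 and 2145 genes at an unadjusted p under 0.05). Of the 539, 376 (69.8%) had the same sign at 18 h against 2 h, beside 51.6% of all genes tested. It was 288 of the 391 called lower (73.7%) and 59.5% of those called higher. Of the 7 called at 18 h against 2 h, 5 (71.4%) had the same sign at 22 h against 0 h. Neither 2 h against 0 h nor 22 h against 18 h gave a call by edgeR (0.0% each). Unadjusted p was under 0.05 in 517 and 2909 genes, and DESeq2 called 2 and 480.

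Single libraries moved these counts as well. For 22 h against 0 h the count was 3 without 22 h replicate 2, 11 without 22 h replicate 3, 63 without 0 h replicate 3, 178 without 0 h replicate 1, 1.9e+02 (2 digits kept) without 0 h replicate 2 and 1218 without 18 h replicate 3. The last library is in neither arm, and the cause of this rise was not tested. For 22 h against 18 h, 1689 genes were called without 18 h replicate 3, and it was 1 without 0 h replicate 3, 2 h replicate 1 or 22 h replicate 1. For 2 h against 0 h it was 1 without 0 h replicate 2, 0 h replicate 3 or 18 h replicate 1. For 18 h against 2 h it was 1.2e+02 (2 digits kept) without 18 h replicate 3, 50 without 22 h replicate 1 and 25 without 0 h replicate 3. It was 4 without 0 h replicate 1, 3 without 22 h replicate 2, 2 without 2 h replicate 2 and 1 without 18 h replicate 1. By edgeR it was 0 without 2 h replicate 1, 2 h replicate 3 or 18 h replicate 2.

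Glucocorticoid response genes were called at 22 h against 0 h, 7 higher of 21 tested, beside 0.926% of all genes. The list had a median log2 fold change of 0.75. At 2 h against 0 h the median was 0.52, and at 18 h against 2 h it was -0.09. Fkbp5, a chaperone that restrains the glucocorticoid receptor and is induced by it, lay at 12.0, 14.2 and 12.1 in the 0 h libraries, 21.8, 24.7 and 30.5 at 2 h, 12.2, 20.5 and 25.6 at 18 h, and 22.7, 24.1 and 28.7 at 22 h. The 0 h libraries and 18 h replicate 1 were thus the low ones. Its log2 fold change was 1.00 at 22 h against 0 h (adjusted p = 0.0253) and -0.40 at 18 h against 2 h (adjusted p = 0.451). Plin4, a lipid droplet protein, had 1.86 (adjusted p = 0.028) and -1.14 (adjusted p = 0.235), with 10.1, 20.3 and 24.5 at 2 h and 13.4, 21.1 and 23.1 at 22 h. Zbtb16 had 1.21 (adjusted p = 0.025), with 13.3, 15.4 and 16.8 at 2 h and 11.5, 14.9 and 18.7 at 22 h, and Tsc22d3, which mediates steroid effects on immune cells, 0.82 (adjusted p = 0.0477), with 146.01, 170.5 and 187.7 at 2 h and 162.4, 232.1 and 236 at 22 h. The genes of this and the next paragraph were chosen after their values were seen.

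Other lists had calls at 22 h against 0 h, where 2.45% of all genes tested were called lower and 0.926% higher. In the splicing list 11 of 33 were called lower, with Clk1 at -0.98 (adjusted p = 0.0112) and Srsf6 at -0.71 (adjusted p = 0.0221), and in the mitochondrial genome 6 of 11, with mt-Nd2 at -0.66 (adjusted p = 0.000664) and mt-Co2 at -0.70 (adjusted p = 0.00295). At 18 h against 2 h none of the genes named in this paragraph was called, with log2 fold changes of -0.35 for mt-Nd2, -0.11 for mt-Co2, -0.54 for Clk1, -0.28 for Srsf6, 0.22 for Mal, -0.05 for Msmo1, 0.14 for Grin2c and 0.06 for Per3. Oligodendrocyte genes had 5 of 10 called higher, with Mal, a myelin proteolipid, at 0.69 (adjusted p = 0.0221). Angptl4, an inhibitor of lipoprotein lipase and a target of fatty acid receptors, had 1.38 (adjusted p = 0.0266) and was at 1.29, 1.496 and 1.35 at 0 h, 2.48, 3.02 and 3.82 at 2 h, and 3.13, 4.48 and 3.14 at 22 h. The 2 h and 22 h libraries thus overlapped (0.32 at 18 h against 2 h, adjusted p = 0.723). Msmo1, a sterol oxidase of cholesterol synthesis, had 0.54 (adjusted p = 0.00815). Grin2c, an NMDA receptor subunit of granule neurons, was called lower (-0.47, adjusted p = 0.0253), as was the clock gene Per3 (-0.34, adjusted p = 0.0489).

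The 7 genes called at 18 h against 2 h were Wdr6, Fasn and Fat2 (higher) and Omp, Rpl39-ps and the predicted genes Gm15421 and A930024E05Rik (lower). Those outside the lists were named after their values were seen. Fat2, a cadherin of granule neurons, lay at 408, 380 and 356 at 2 h and at 494, 533 and 507 at 18 h (log2 fold change 0.42, adjusted p = 0.031). At 0 h it lay at 410, 407 and 385 and at 22 h at 373, 401 and 400, so that the 18 h libraries stood alone. Fasn was at 97.3, 101.3 and 103.99 at 2 h and at 149.1, 151.1 and 140 at 18 h (log2 fold change 0.54, adjusted p = 0.0125). Omp, the marker of olfactory sensory neurons, lay at 2.92, 1.51 and 2.42 at 2 h and between 0.234 and 0.861 in the other 9 libraries. It fell by 2.89 on the log2 scale at 18 h against 2 h (adjusted p = 0.031). Omp passed the filter of 1.183 CPM only through the 2 h libraries, the group in which it is high, so that this call is uncertain, and the part of olfactory tissue in the 2 h samples was not tested.

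The CBL response was set against those of BST and OB of the same mice, by a test of the difference between late fast and fed between organs with mouse as a block. Against BST no gene was called by edgeR (0.0% of genes tested, with 1815 at an unadjusted p under 0.05, and 40 called by DESeq2). Without 0 h replicate 1 the count was 40, and it was 33 without 18 h replicate 2, 17 without 18 h replicate 1 and 2 without 2 h replicate 3. The median difference over the mitochondrial genome was -0.34, beside 0.01 for all genes, and its summed level in BST was 40080, 56514 and 61083 in the fed state and 47222, 54356 and 59930 in the late fast. The splicing list had a median difference of -0.34 (BST sums from 3585 to 3888 against 3492 to 3911), and choroid plexus genes -2.01, with BST sums from 586 to 5178 against 645 to 6022. Less OB, the median differences were smaller, -0.22 for the mitochondrial genome and -0.26 for splicing. The OB sums had medians of 44138 (fed) and 38619 (late fast) for the mitochondrial genome and of 6936 and 6236 for splicing.

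Against OB, 36 genes (0.225%) differed in response, 32 (0.2%) with a higher and 4 (0.025%) with a lower log2 fold change in CBL. DESeq2 called 206. All 6 fed OB libraries were sequenced in lane 3 and all 6 late fast OB libraries in lane 4, so that the OB response and lane cannot be told apart in any of these differences. Among the 32 were Slco1a4, an organic anion carrier of brain endothelium, and Flt1, a receptor for vascular endothelial growth factor. Slco1a4 lay at 26.6, 32.8 and 39.2 in the fed state and at 32.9, 44.5 and 49.5 in the late fast in CBL, and its median in OB was 38.9 against 25.1. The difference between the log2 fold changes was 0.87 (SE 0.12, adjusted p = 0.0132), with opposite directions of the medians in the organs. For Flt1 the difference was 1.45 (adjusted p = 0.0132), with medians of 17.4 and 29.7 in CBL and 27.98 and 16.6 in OB. Abcc9, of mural cells, had 1.30 (adjusted p = 0.0207), Abcb1a, a drug efflux pump of vessels, 1.33 (adjusted p = 0.0137), and Slc2a1, the glucose transporter of the blood-brain barrier, 0.71 (adjusted p = 0.0424). In CBL alone edgeR called none of these between the late fast and the fed state, but at 22 h against 0 h it called Abcb1a (1.06, adjusted p = 0.0168) and Abcc9 (0.78, adjusted p = 0.0253) higher.

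The endothelial list as a whole had a median difference of 0.89 over 10 genes and mural cells 0.72 over 8, beside 0.00 for all genes. Endothelial genes summed to 211, 252 and 280 in the fed OB and to 158.7, 182.8 and 260 in the late fast, against 132.05, 156.3 and 199 and 141.7, 223 and 288 in CBL. Vessel content of the dissected pieces was not tested. Itpr1 of Purkinje cells had a difference of 0.54 (adjusted p = 0.0245) and Sema7a 0.46 (adjusted p = 0.0137). The 4 genes with a lower log2 fold change in CBL were Gas5 (-0.43, adjusted p = 0.031), Irf2bp2 (-0.47), Hnrnpa1 (-0.58), a splicing regulator, and CT010467.1 (-0.86); those outside the lists were chosen after their values were seen. By edgeR the count was 0 without 18 h replicate 3, 11 without 0 h replicate 2 or 2 h replicate 2, 12 without 0 h replicate 1, 19 without 22 h replicate 3, 59 without 0 h replicate 3 and 64 without 22 h replicate 2.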

How the data were processed

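RNA of each dissected organ was sequenced from stranded poly(A) libraries. The deposited table holds raw read counts per gene, which the authors made with TopHat2 2.1.1 on GRCm38.p5 and HTSeq 0.9.1, per the submitters' processing notes. Coordinates come from Gencode M21, a later release than the one the counts were made on, so that those of some genes may differ. Genes with at least 1.183 CPM (10 counts at the median total of 8449758) in at least 3 of the 18 CBL libraries were tested. The table holds 24823 genes without a count in the 12 libraries compared and 2 with a repeated name. The 12 libraries held between 6872363 and 22071004 counts.

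Groups were compared with edgeR 4.0.16 in R 4.3.3 (robust quasi-likelihood fits, TMM factors). The p of each gene was adjusted over the genes tested by the Benjamini-Hochberg method. A gene is called at an adjusted p under 0.05. The SE is the absolute log2 fold change over the square root of F. The 4 time points were fitted as groups over the same 12 libraries. The organ comparisons used the same genes, with mouse as a block. Levels use TMM factors over the 18 libraries of an organ. Shares of counts were compared by exact permutation. Tables and plots used Python 3.11.15, pandas 2.3.3, numpy 2.4.6 and matplotlib 3.10.9. The scripts were tested on simulated data.

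Genes named are the 12 called with the smallest adjusted p and the 8 with the largest fold in each direction, predicted genes left out. From each gene list up to 8 called members and the 2 most abundant members were taken as well, and from each cell type list with a call its most abundant member, beside Cbln1 and Pcp2. Genes named outside this rule, for the time points, the organs and the fold over 1, were chosen after their values were seen. The members and lists were chosen with earlier results of these data known. Alternatives were DESeq2 1.42.0, RLE or upper-quartile factors, other filters (none, or 50 counts), other designs, thinned 0 h counts, and fits without a time point or a library. Organs other than CBL, BST and OB were not analysed here.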

Additional observations from a re-analysis of the deposited data

Results flagged for a closer look

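A value was marked where a library stood apart from the other 5 of its group in a Dixon test. Chance marks about 1 in 20 groups, and 13 of the 182 groups tested held such a value.

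2 h replicate 3 stood apart most often. Its share of RNAs without a poly(A) tail was 0.01157% and its ribosomal protein share 0.4154%, both above the other fed libraries. Summed levels in that library were 114.95 for RNAs without a poly(A) tail and 4128 for ribosomal proteins (high), and 6865 for splicing regulators and 2000 for clock genes (low). Rps24 was at 52.63 there, the highest fed value. The share and the summed level of a list rest on the same counts, and Rps24 is a ribosomal protein gene, so that these marks overlap. 22 h replicate 1 stood apart with low sums of 1883 for heat shock and cold-inducible genes and 2045 for clock genes. Srsf7 was high in 2 h replicate 1 (181.7) and Msl1 in 2 h replicate 2 (192.3). Slc1a2 was high in 18 h replicate 3 (678.8), and Rtl8a was low in 22 h replicate 3 (30.61).

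Differences between organs were marked for CBL and OB. The log2 fold change of late fast against fed was called different in 36 genes. By edgeR it was 0 without 18 h replicate 3 (1906 genes at an unadjusted p under 0.05). Fed OB libraries were all in lane 3 and late fast ones in lane 4, so that the OB response and lane cannot be told apart. Among the genes named, the difference in log2 fold change was -0.43 for Gas5, 0.54 for Itpr1, 0.46 for Sema7a and 0.87 for Slco1a4.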

How the results depend on the processing

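The replicate numbers mark different mice at each time, and the labels give no pairing. With a replicate block the late fast count moved from 43 higher and 58 lower to 62 called genes in all, and the count past an absolute log2 fold change of 1 from 3 to 1. With the replicate block, 18 h against 2 h gave 13, 2 h against 0 h 2 and 22 h against 18 h 30. Over 18 same-numbered pairs, r ran from -0.245 to 0.261 (median 0.00381, against -0.0272 for different numbers), and 4 were over 0.1.

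The late fast count (43 higher and 58 lower) was 94 with RLE factors, 88 with upper-quartile factors, 86 with all 18 CBL libraries and 79 with thinned 0 h counts, and it moved by less than 1.5 times under the stricter filter. It was 502 with DESeq2, 186 with no filter and 355 with 4 time groups. It was 3 without the 0 h libraries, 0 without those of 2 h (1651 genes at an unadjusted p under 0.05 by edgeR; DESeq2 was not run on that subset), 1324 without those of 18 h and 35 without those of 22 h. Leaving out each library in turn gave 0 to 467. The 43 called genes under the naming rule kept their sign in each of these fits that tested them. Under the stricter filter only 41 of them were tested. These fits share most of their libraries with the fit that selected the genes.

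Of the genes also past an absolute log2 fold change of 1 (3), DESeq2 gave 7, no filter 11, the stricter filter 1, 4 time groups 16, the fit without 2 h 0, without 18 h 1.2e+02 (2 digits kept) and without 22 h 0 (2327 genes at an unadjusted p under 0.05). Leaving out each library gave 0 to 31.

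For 22 h against 0 h (539), DESeq2 gave 973, no filter 1404 and leaving out each library 3 to 1218, with 437 after thinning the 0 h counts. For 18 h against 2 h (7), it was 250, 279 and 0 to 1.2e+02, and 13 with thinned 0 h counts. For 2 h against 0 h (0), it was 2, 29 and 0 to 1, and for 22 h against 18 h (0), 480, 816 and 0 to 1689, with 1 after thinning. CBL less BST (0) gave 40, 534 and 0 to 40. CBL less OB (36) gave 206, 497 and 0 to 64, and 16 with no block for the mouse. The cause of these shifts was not tested, except that fits without libraries hold fewer samples and other filters test other genes.

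Without the 0 h libraries, the difference in mitochondrial share was -1.168 percentage points and in the share of the 10 most abundant genes -1.092, with an adjusted p of 0.0952 for each in an exact permutation whose smallest p is 0.0119. The limits are few mice per time, deeper 0 h libraries, a called set that single libraries remove, and poly(A) selection with uniquely mapped reads, which leaves ribosomal protein and mitochondrial genes uncertain. Tissue pieces mix cell types. Low-count genes such as Btbd16 and Rps13 rest on few reads.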
